A study of Homo sapiens with 5 samples.

Results

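The genes described here are the ligands and receptors of axon guidance, chosen by symbol: semaphorins, plexins, the neuropilins NRP1 and NRP2, ephrins, Eph receptors, SLIT and ROBO genes, netrins, UNC5 receptors and DCC. They number 70 of the 20045 named genes on the array, covered by 115 of its 47317 probes. EPHB2 was not analysed here. The samples were H9 cells, an established human embryonic stem cell line, after 2, 4, 6 and 8 weeks of differentiation toward cells resembling the corneal epithelium, and undifferentiated H9 at week 0. Every sample was kept in E6, a defined medium renewed daily, and had 1 bead array with no replicate. All come from 1 cell line, and the labels do not say whether the later weeks followed a single culture.

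Axon guidance cues are secreted or membrane-bound proteins that tell a growing axon, or a migrating cell, to approach or turn away. Class 3 semaphorins are secreted and bind neuropilins, which signal through plexins, whereas most other semaphorins are membrane proteins that bind plexins directly. Ephrin-A ligands are held in the membrane by a lipid anchor and ephrin-B ligands span it, and both bind Eph receptor tyrosine kinases on a neighbouring cell. SLIT proteins bind ROBO receptors and are mostly repulsive, and netrin-1 attracts through DCC and repels through UNC5 receptors. In the developing eye these families steer retinal axons and the sensory axons that enter the cornea, and they also act in neural crest, blood vessels and epithelia.

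Of the 70 genes, 55 (78.6%) were above background on at least 1 array, against 13002 (64.9%) of all named genes. Above background means a detection p-value under 0.01. The arrays of weeks 0, 2, 4, 6 and 8 had 38, 46, 46, 48 and 49 of them above background, and 31 were above background on all 5 arrays. The 15 genes below background on every array were SEMA6D, NRP2, PLXNA4, PLXNB3, PLXNC1, EFNA2, EPHA1, EPHA2, EPHA4, EPHA5, EPHA6, ROBO4, NTN3, NTNG2 and DCC. Their silence cannot be read from such signals, and nothing is said of the direction of these 15. Levels below are normalized signals on a log2 scale, and each belongs to 1 probe, so levels of different genes cannot be ranked against each other.

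Each week rests on a single array, so no replicate spread was available and nothing was tested. A call, higher or lower, needed a difference of 2-fold or more and a brighter array above background. Where the dimmer array was below background, its value was set at the lowest level measured on that array, between 5.46 and 5.67, and the fold is a lower bound written as "at least". Such a call describes 2 arrays and not the conditions.

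Most called guidance genes were higher than in undifferentiated cells. The number higher was 21 at week 4 and 20 at week 6, and this order turned without background correction (13 and 14) and with the authors' processed values (12 and 13). At week 2, 12 of 50 measured guidance genes (24%) were called higher and 4 (8%) lower, against 10.7% higher and 9.29% lower among all measured genes. At week 4, 21 of 52 (40.4%) were higher and 4 (7.69%) lower, against 14.0% and 11.5% of all genes. At week 6, 20 of 52 (38.5%) were higher and 5 (9.62%) lower, against 15.8% and 14.1%. At week 8, 17 of 52 (32.7%) were higher and 4 (7.69%) lower, against 16.8% and 15.4%. The share called higher thus stood above that of all genes on each of the 4 later arrays. The share called lower stood below it. The median difference from week 0 was 0.31, 0.44, 0.38 and 0.29 on the log2 scale at weeks 2, 4, 6 and 8, against -0.02, -0.05, -0.04 and -0.05 over all measured genes. These 4 comparisons share the week 0 array. In these bulk samples fewer cells of a type and less RNA per cell cannot be told apart.

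**Figure D1:**
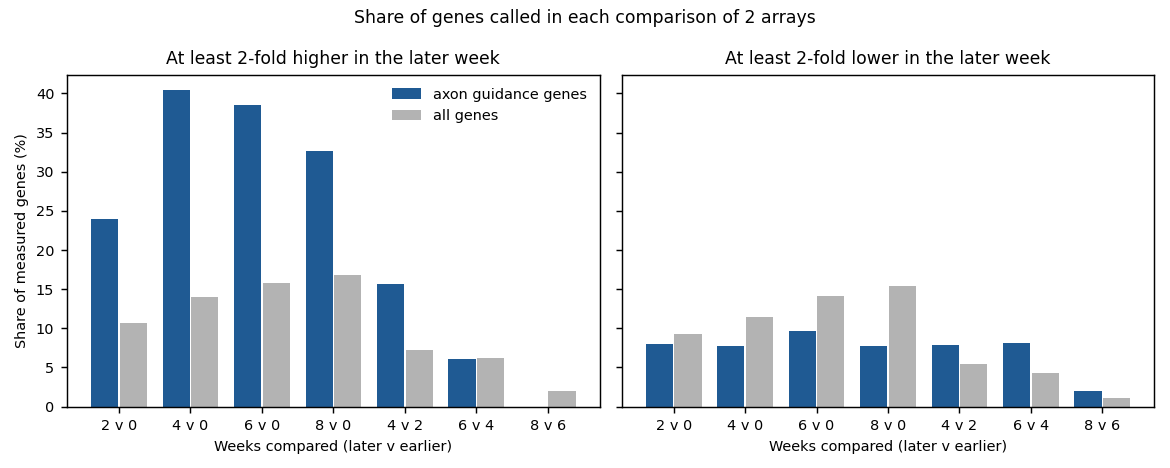
Share of measured genes (%) called at least 2-fold higher (left) or lower (right) in the later of 2 weeks, for axon guidance genes (blue) and all genes (grey). The blue bars for higher genes reach 40.4% at week 4 against week 0 and 32.7% at week 8 against week 0, where the grey bars reach 14.0% and 16.8%.

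Ligands made up most of the genes that were higher at week 8. Of 31 measured ligand genes 13 were higher and 1 was lower, and of 21 measured receptor genes 4 were higher and 3 were lower. The receptor shares, 19% higher and 14.3% lower, lay near the 16.8% and 15.4% of all genes, and the ligand shares were 41.9% and 3.23%. At week 4 the receptors had more calls, with 10 of 21 higher and 4 lower, against 11 of 31 higher and none lower among the ligands. The difference between ligands and receptors was not tested. Among the 17 higher at week 8, earlier calls stood for 11 at week 2, for 13 at week 4 and for 16 at week 6, and SEMA3F was the one not called earlier. Only 3 of the 17 (EFNA1, NTNG1 and SEMA3F) had their highest array at week 8. The highest array was week 6 for 7, week 4 for 6 and week 2 for NTN1.

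**Figure D2:**
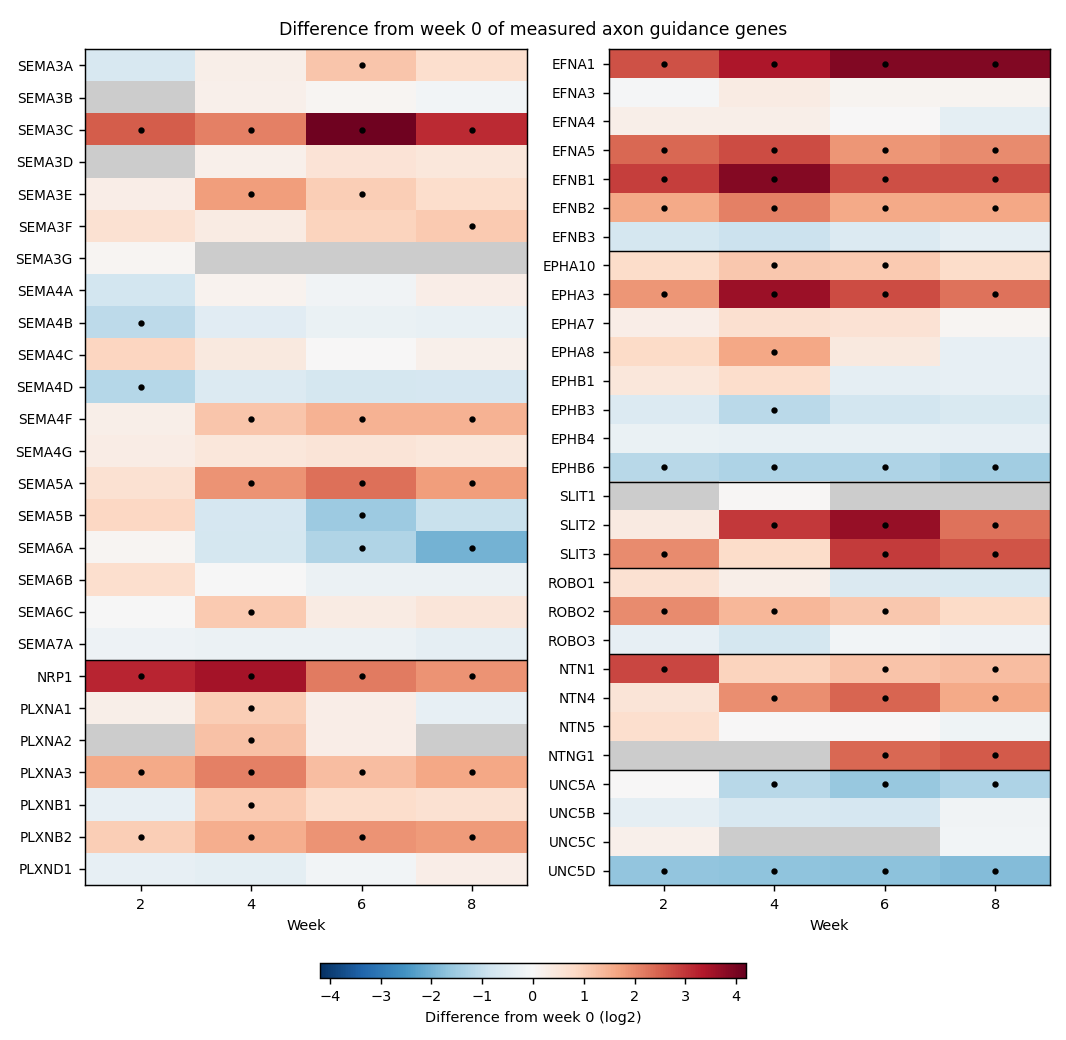
Difference from week 0 (log2, colour) at weeks 2, 4, 6 and 8 for the 55 guidance genes above background on at least 1 array, in family blocks. A black dot marks a call of at least 2-fold, and grey marks 2 arrays both below background. EFNA1, EFNA5, EFNB1, EFNB2, EPHA3, SEMA3C, NRP1, PLXNA3 and PLXNB2 carry a dot of higher level at every week, and EPHB6 and UNC5D a dot of lower level at every week.

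The promoters of EFNA1, SEMA3C, EFNB1 and SLIT3 are shown because these ligand genes head the week 8 differences with each lower bound taken at its value. SEMA3C and SLIT3 are such bounds, as is NTNG1 (at least 2.59 on the log2 scale), so their true order is not known. Each sequence runs from 250 bases before the gene's start to 50 after it, from RefSeq on GRCh38.p14, and capitals mark the GC box GGGCGG on either strand. EFNA1 lies at chr1:155127626-155127925 on the + strand, SEMA3C at chr7:80922340-80922639 on the - strand, EFNB1 at chrX:68828771-68829070 on the + strand and SLIT3 at chr5:169301090-169301389 on the - strand.
EFNA1: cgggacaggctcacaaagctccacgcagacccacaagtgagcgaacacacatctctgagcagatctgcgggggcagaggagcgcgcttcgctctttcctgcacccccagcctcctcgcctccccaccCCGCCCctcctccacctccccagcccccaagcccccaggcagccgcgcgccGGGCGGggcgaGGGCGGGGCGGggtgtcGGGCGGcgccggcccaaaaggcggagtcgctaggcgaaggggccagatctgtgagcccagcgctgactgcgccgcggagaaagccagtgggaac
SEMA3C: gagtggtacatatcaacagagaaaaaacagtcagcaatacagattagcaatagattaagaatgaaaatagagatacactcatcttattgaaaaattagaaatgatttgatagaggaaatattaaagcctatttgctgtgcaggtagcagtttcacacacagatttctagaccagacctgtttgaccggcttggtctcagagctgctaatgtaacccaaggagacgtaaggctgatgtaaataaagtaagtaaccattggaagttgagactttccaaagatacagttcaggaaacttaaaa
EFNB1: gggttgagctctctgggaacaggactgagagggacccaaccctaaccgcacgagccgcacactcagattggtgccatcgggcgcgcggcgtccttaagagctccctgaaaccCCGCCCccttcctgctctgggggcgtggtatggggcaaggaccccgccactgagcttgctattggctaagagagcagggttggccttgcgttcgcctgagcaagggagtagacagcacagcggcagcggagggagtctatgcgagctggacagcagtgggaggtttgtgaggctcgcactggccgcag
SLIT3: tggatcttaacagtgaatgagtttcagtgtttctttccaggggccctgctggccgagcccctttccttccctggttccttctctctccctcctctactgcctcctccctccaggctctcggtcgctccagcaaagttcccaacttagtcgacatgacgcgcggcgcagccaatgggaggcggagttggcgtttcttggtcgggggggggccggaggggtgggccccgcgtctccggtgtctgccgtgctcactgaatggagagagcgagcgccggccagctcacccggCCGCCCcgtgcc
The EFNA1 window held 5 GC boxes, some of them overlapping, and had a GC content of 71.7%. EFNB1 and SLIT3 held 1 GC box each, at 63.7% and 64.7% GC. The SEMA3C window held none, at 36% GC. The CCAAT box was found at 2 places in EFNB1, 1 in SEMA3C and 1 in SLIT3, and none of the 4 windows held TATAAA.

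The table of promoters held 59 of the 70 guidance genes. The GC box was found in 11 of 15 promoters of genes higher at week 8 (73.3%), in 44 of the 59 guidance promoters (74.6%) and in 12174 of 27305 promoters of the whole table (44.6%). TATAAA was found in 1 of the 15 (EFNB2), 1 of the 59 and 12% of all promoters. The E-box CANNTG was found in 8 of the 15, 59.3% of the 59 and 68.9% of all, and GCCNNNGGC, a motif of TFAP2 factors, in 6 of the 15, 35.6% of the 59 and 23% of all. TAATTA, a homeodomain motif, was found in none of the 15, in 1 of the 59 and in 4.98% of all. Each motif was searched on both strands, matches may overlap those of another motif, and a match is a run of letters and not a bound site. The genes higher at week 8 and the guidance genes as a whole held the GC box in nearly equal shares. Median GC content was 66.7% in the 15, 64.7% in the 59 and 58.3% in all promoters. Its part in the motif shares was not tested.

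Ephrin ligands had the same calls at every later week. Of 7 measured ephrin genes the same 4, EFNA1, EFNA5, EFNB1 and EFNB2, were called higher at each of weeks 2, 4, 6 and 8, and none was lower. This share, 57.1% at each week, compares with 10.7%, 14.0%, 15.8% and 16.8% of all genes. EFNA1, an ephrin-A ligand, stood at 6.75, 9.42, 10.14, 10.64 and 10.64 at weeks 0, 2, 4, 6 and 8. It climbed until week 6, was level at week 8, and was 14.8-fold higher at week 8 than at week 0. EFNB1, an ephrin-B ligand known from neural crest and craniofacial development, stood at 8.44, 11.33, 12.30, 11.13 and 11.14. Its highest array was week 4, at 14.6-fold above week 0, and at week 8 it was 6.51-fold above week 0. EFNB2, which marks arteries and also acts in many epithelia, stood at 7.92, 9.50, 10.02, 9.52 and 9.54, 3.07-fold higher at week 8. EFNA5, a repellent of retinal axons, was below background at week 0 and stood at 8.07, 8.40, 7.51 and 7.64 at weeks 2, 4, 6 and 8, at least 3.92-fold higher at week 8.

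The other ephrins hardly moved. EFNA3 ranged over 0.40, EFNA4 over 0.64 and EFNB3 over 0.91 on the log2 scale across the 5 arrays, all under 2-fold. EFNA4, EFNA3 and EFNA1 lie next to each other on chromosome 1 with no other protein-coding gene between them, so of these neighbours 1 was called and 2 were not. At week 8 the difference from week 0 was 3.89 for EFNA1, 0.12 for EFNA3 and -0.41 for EFNA4. EFNA1 had a second probe that was below background on all 5 arrays.

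Among Eph receptors, which bind the ephrins, EPHA3 stood out by size and EPHB6 was lower. Of 8 measured Eph genes EPHA3 was higher and EPHB6 lower at week 8, and the other 6 were not called. That is 12.5% each way, near the 16.8% higher and 15.4% lower of all genes. EPHA3, a receptor for ephrin-A ligands, stood at 7.10, 8.95, 10.68, 9.83 and 9.37 at weeks 0, 2, 4, 6 and 8. It was 12-fold above week 0 at week 4 and 4.84-fold above it at week 8. A second EPHA3 probe was below background at week 0 and stood at 6.00, 8.22, 6.96 and 6.67 at the later weeks, with the same peak at week 4. The remaining EPHA3 probe was above background at week 4 alone. EPHA8, another receptor for ephrin-A ligands, stood at 7.65, 8.47, 9.29, 8.05 and 7.30, so that it was 3.12-fold above week 0 at week 4 and not called at week 8. EPHA10, whose kinase domain lacks activity, was called higher at week 4 (2.19-fold) and week 6 (2.16-fold) on its main probe. Another EPHA10 probe, above background on all 5 arrays, differed from week 0 by 0.08 at week 4 and 0.00 at week 6.

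EPHB6, also a receptor without kinase activity, stood at 6.91, 5.72 and 5.60 at weeks 0, 2 and 6, and was below background at weeks 4 and 8. It was at least 2.73-fold lower at week 8. EPHB3, an ephrin-B receptor of epithelial boundaries, was 2.18-fold lower at week 4, at 8.31 against 9.43 at week 0, and stood at 8.79 at week 8. EPHB1 stood at 6.83, 7.32, 7.55, 6.45 and 6.49 and was called once, 2.15-fold lower at week 6 than at week 4. EPHB4, a partner of EFNB2 in vessels, was above background at weeks 0 and 8 only, at 5.89 and 5.56, and EPHA7 ranged over 0.66. All 4 measured EphB genes read lower at week 8 than at week 0, by 0.33 for EPHB1 to at least 1.45 for EPHB6 on the log2 scale, and EPHB6 alone passed 2-fold.

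**Figure D3:**
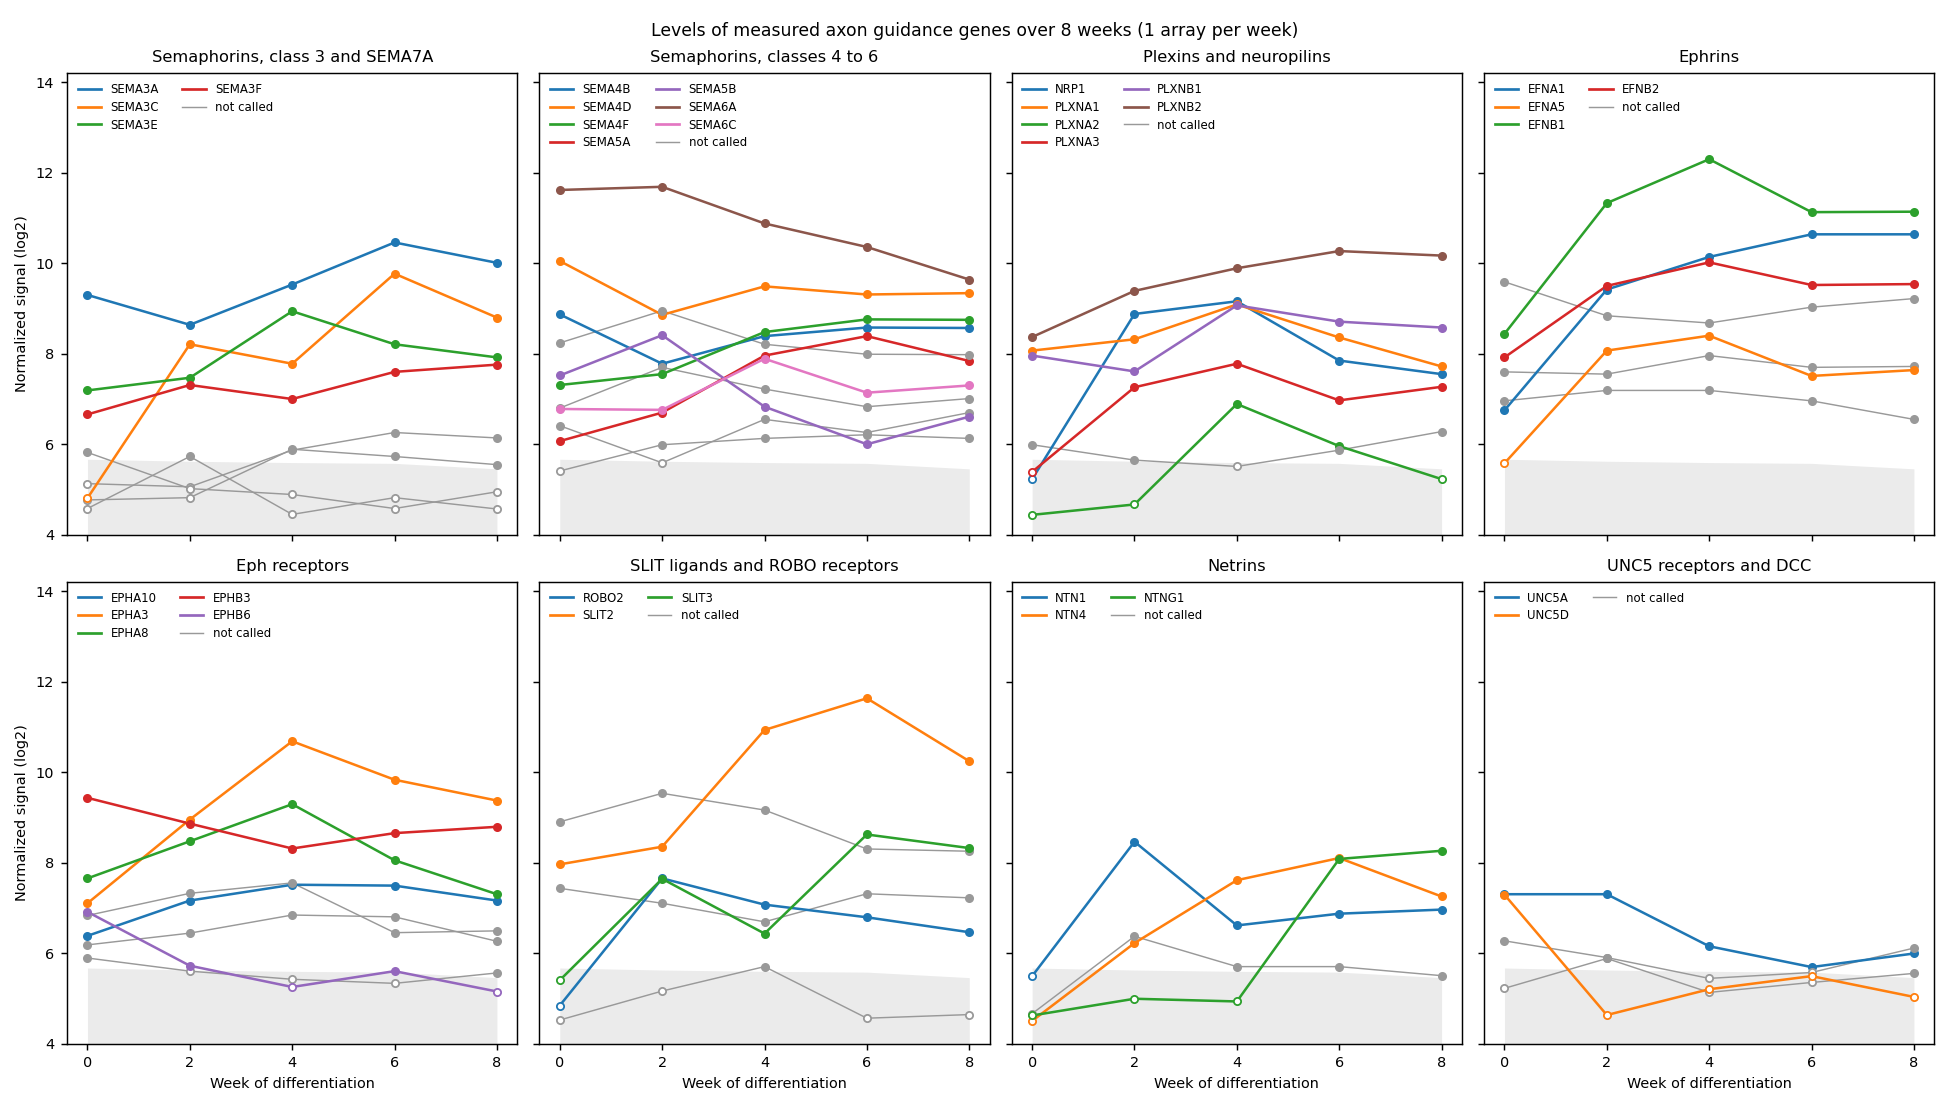
Normalized signal (log2) against week for the 55 guidance genes above background on at least 1 array, 1 array per week. Coloured lines were called at some week against week 0, grey lines were not, open points were below background, and the grey band lies under the lowest level measured on each array. The ephrins EFNA1, EFNB1 and EFNB2 stay high from week 2, EPHA3, NRP1 and PLXNA2 peak at week 4, and NTNG1 leaves the band between weeks 4 and 6.

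Both SLIT ligands measured at week 0 or 8 were called higher at week 8, and none of 3 ROBO receptors was called. Among all genes 16.8% were called higher at week 8 and 15.4% lower. SLIT2, a repellent of retinal and commissural axons, stood at 7.96, 8.35, 10.93, 11.63 and 10.24 at weeks 0, 2, 4, 6 and 8. It was near its starting level at week 2, 12.7-fold above week 0 at week 6, and 4.85-fold above it at week 8. The 2.63-fold lower level of SLIT2 at week 8 than at week 6 was the single call of a guidance gene in that last step. SLIT3 was below background at week 0 and stood at 7.64, 6.43, 8.62 and 8.32 at weeks 2, 4, 6 and 8. It dipped at week 4, 2.30-fold below week 2, and its week 8 array exceeded week 0 at least 6.29-fold. SLIT1 was above background at week 4 only, at 5.70.

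Of the ROBO receptors, ROBO2 was below background at week 0 and stood at 7.65, 7.07, 6.79 and 6.46 at weeks 2, 4, 6 and 8. It was highest at week 2, at least 3.94-fold above week 0, and at week 8 the bound of 1.74-fold was not a call. A second ROBO2 probe was at 6.82, 6.79, 5.86 and 5.92 on the same arrays, again highest at weeks 2 and 4. ROBO1, its neighbour on chromosome 3, stood at 8.90, 9.53, 9.16, 8.30 and 8.25 and was not called in any comparison with week 0. ROBO3, which lets commissural axons cross the midline, ranged over 0.74.

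At week 8, 3 of 4 measured netrin genes were called higher, and 2 of 4 measured UNC5 genes, whose products are netrin receptors, were called lower. Over all genes the shares were 16.8% higher and 15.4% lower. The calls of NTN1, NTN4, UNC5A and UNC5D were lost without background correction and with the authors' processed values, and that of NTNG1 was kept under both. NTN1, the gene of netrin-1, was below background at week 0 and stood at 8.46, 6.61, 6.87 and 6.96 at weeks 2, 4, 6 and 8. Its week 2 array was the highest, at least 6.91-fold above week 0, and at week 8 it was at least 2.44-fold above it. NTN4, a laminin-like netrin of basement membranes, was below background at week 0 and stood at 6.22, 7.61, 8.10 and 7.25, at least 2.99-fold higher at week 8. NTNG1, a lipid-anchored netrin relative at synapses, was below background at weeks 0, 2 and 4 and stood at 8.08 and 8.26 at weeks 6 and 8. Its week 8 array exceeded week 0 at least 6.02-fold, and its other probe was likewise above background at weeks 6 and 8 only, at 6.82 and 7.10. The other NTN4 probe was above background at week 6 alone, at 5.69, and the other NTN1 probe on no array. NTN5 was above background from week 2 on, at 6.37, 5.70, 5.70 and 5.50, and was not called on its main probe.

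UNC5A, a repulsive netrin receptor, stood at 7.30, 7.30, 6.15, 5.69 and 5.99 at weeks 0, 2, 4, 6 and 8, 2.48-fold lower at week 8 than at week 0. UNC5D was above background at week 0 alone, at 7.29, and its later arrays were lower by at least 3.17-fold (week 2) and at least 3.56-fold (week 8). As reported, UNC5D was first called lower at week 2 and UNC5A at week 4. The week 2 call of UNC5D was lost without background correction (-0.75) and with the authors' processed values (-0.89). At week 4 no guidance gene was called lower under either of these settings. UNC5B was above background at weeks 0, 2 and 8, at 6.27, 5.90 and 6.11, and UNC5C at weeks 2 and 8, at 5.88 and 5.55. Neither was called, and DCC gave no measured level.

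Of 18 semaphorin genes measured at week 0 or 8, SEMA3C, SEMA3F, SEMA4F and SEMA5A were higher at week 8, SEMA6A was lower and 13 were not called. The semaphorin shares, 22.2% higher and 5.56% lower, compare with 16.8% and 15.4% of all genes, so the higher share lay near that of all genes. SEMA3C, a secreted semaphorin known for guiding neural crest cells, was below background at week 0 and stood at 8.21, 7.78, 9.77 and 8.80 at weeks 2, 4, 6 and 8. Its week 6 array exceeded week 0 at least 17.2-fold, and its week 8 array exceeded it at least 8.76-fold. SEMA3A, the classic secreted repellent, stood at 9.30, 8.64, 9.53, 10.46 and 10.01, called 2.23-fold higher at week 6 and not at week 8. SEMA3E, which binds PLXND1 without a neuropilin, stood at 7.19, 7.47, 8.94, 8.21 and 7.92, highest at week 4 at 3.37-fold above week 0. Its second probe was above background at weeks 4 and 6 only, at 6.15 and 6.19. The bounds for that probe over week 0, 0.48 and 0.53 on the log2 scale, were not calls. SEMA3F stood at 6.66, 7.31, 7.0, 7.60 and 7.76, 2.16-fold higher at week 8. SEMA3D and SEMA3B were above background from week 4 on, at 5.55 to 6.26, and SEMA3G at week 2 alone. SEMA3E, SEMA3A and SEMA3D are next to each other on chromosome 7, and on their main probes their highest arrays were week 4, week 6 and week 6.

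The membrane-bound semaphorins moved in both directions. SEMA5A, which carries thrombospondin repeats, stood at 6.07, 6.70, 7.96, 8.39 and 7.84 at weeks 0, 2, 4, 6 and 8, 3.41-fold higher at week 8. SEMA5B, its close relative, ran the other way after week 2. It stood at 7.52, 8.41, 6.83, 6.00 and 6.61, 2.87-fold lower at week 6 than at week 0. SEMA4F stood at 7.31, 7.55, 8.48, 8.76 and 8.75, 2.73-fold higher at week 8, and SEMA6C was called at week 4 alone, 2.15-fold higher. SEMA6A, a ligand of PLXNA2 and PLXNA4, stood at 11.62, 11.69, 10.88, 10.36 and 9.64 and was 3.94-fold lower at week 8. It was level at week 2 and then lower on each later array. SEMA4D, the ligand of PLXNB1, was 2.29-fold lower at week 2, at 8.86 against 10.05 at week 0, and SEMA4B 2.14-fold lower, at 7.78 against 8.87. Both were called at no later week.

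The plexins and NRP1, the receptors of semaphorins, had the most calls at week 4. Of 7 genes measured there, 6 were called higher (NRP1, PLXNA1, PLXNA2, PLXNA3, PLXNB1 and PLXNB2), and 3 of 6 (NRP1, PLXNA3 and PLXNB2) were still called at week 8. Of all genes 14.0% were higher at week 4 and 16.8% at week 8. NRP1, a co-receptor for class 3 semaphorins and for VEGF, was below background at week 0 and stood at 8.88, 9.16, 7.85 and 7.55 at weeks 2, 4, 6 and 8. Relative to week 0 it reached at least 11.3-fold at week 4 and was still at least 3.69-fold up at week 8. A second NRP1 probe, at 6.57, 6.07, 5.62 and 5.63 on those arrays, was also below background at week 0 and did not reach 2-fold at any week. PLXNA3 was below background at week 0 and stood at 7.26, 7.78, 6.97 and 7.27, at least 3.04-fold higher at week 8. PLXNB2, a plexin of epithelia and neural progenitors, stood at 8.37, 9.39, 9.89, 10.27 and 10.17, 3.47-fold higher at week 8.

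PLXNA1, PLXNA2 and PLXNB1 were called at week 4 and not at week 8. Their week 4 folds over week 0 lay close to the limit, at 2.03, at least 2.33 and 2.16. Single genes were not recomputed under the other settings at week 4. PLXNA1 stood at 8.07, 8.32, 9.09, 8.36 and 7.72 at weeks 0, 2, 4, 6 and 8, and PLXNB1 at 7.96, 7.61, 9.07, 8.71 and 8.58. PLXNA2 was above background at weeks 4 and 6 only, at 6.89 and 5.96. PLXND1, the receptor of SEMA3E, was not called in any week. It stood at 5.99 and 5.65 at weeks 0 and 2 and at 5.87 and 6.28 at weeks 6 and 8, and was below background at week 4.

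A set of 10 guidance genes was transiently high, with an array at week 2, 4 or 6 that exceeded those of weeks 0 and 8 by 2-fold or more each: EFNB1, EPHA3, EPHA8, NRP1, NTN1, PLXNA1, PLXNA2, ROBO2, SEMA3E and SLIT2. The highest array was week 4 for 7 of them, week 2 for NTN1 and ROBO2 and week 6 for SLIT2. They are 10 of 55 measured guidance genes, against 4.41% of all measured genes. None was transiently low, against 2.51% of all. EPHA8 and EPHA3 were 3.96-fold and 2.48-fold above week 8 at week 4, and NRP1 was 3.06-fold above it. SEMA3E only just passed 2-fold over week 8 (2.03-fold), as PLXNA1 did over week 0 (2.03-fold).

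Fewer guidance genes were called in each later step between neighbouring weeks. From week 2 to week 4, 8 of 51 genes were higher and 4 lower, against 7.27% and 5.42% of all genes. SLIT2 (5.98-fold), EPHA3 (3.33-fold), SEMA3E (2.76-fold) and PLXNB1 (2.74-fold) were among those higher, with PLXNA2 at a lower bound (at least 2.41-fold), and NTN1 (3.59-fold) and SEMA5B (2.97-fold) among those lower. From week 4 to week 6, 3 of 49 were higher and 4 lower, against 6.23% and 4.26% of all genes. NTNG1 was at least 5.60-fold higher, SLIT3 4.56-fold and SEMA3C 3.99-fold, all ligands or ligand relatives. NRP1 was 2.49-fold lower, EPHA8 2.36-fold, EFNB1 2.24-fold and EPHB1 2.15-fold. From week 6 to week 8, none of 51 was higher and SLIT2 was lower, against 1.93% and 1.08% of all genes. These shares at the last 2 steps lie near those of all genes or rest on few calls.

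Marker genes moved over the same weeks, and their part in these results was not tested. Among 12 neuron markers 10, 11, 11, 12 and 12 were above background at weeks 0, 2, 4, 6 and 8, and their summed level on the linear scale was 7747, 24886, 28679, 11830 and 12901. The neuron sum was highest at weeks 2 and 4. Such a sum weighs bright probes most, here STMN2 (13.15 on the log2 scale at week 4) and TUBB3 (13.18). SYT1 read lower at week 2 than at week 0 (6.47 against 7.47), and INA was below background at weeks 2 and 4. At week 8 STMN2, SNAP25, MAPT, ELAVL3, ELAVL4 and TUBB3 were called higher. DCX, NEFL, NEFM, SYT1, GAP43 and INA were not called. The 6 neural progenitor markers summed to 6296, 6703, 13610, 6939 and 7479, highest at week 4. Of these 6, SOX1 and FABP7 were below background on all arrays, and PAX6 is also among the 5 corneal epithelial markers below. The 4 pluripotent cell markers summed to 23173, 5395, 1526, 345 and 272, and the 4 lens markers to 204, 286, 561, 2947 and 7947. The 7 stroma and fibroblast markers summed to 5347, 17177, 12465, 30053 and 43289, and the 6 pigment and neural crest markers to 1518, 5111, 5855, 23805 and 30461. Among the stroma and fibroblast markers, DCN, LUM, COL1A1, COL1A2 and PDGFRA were called higher at week 8. COL3A1 was not called and THY1 was 8.27-fold lower. Of 7 epithelial markers 2, 3, 5, 6 and 7 were above background, and they summed to 7616, 4086, 4275, 7313 and 10492. That sum was lower at weeks 2, 4 and 6 than at week 0. At week 8 KRT5, KRT14, KRT15, KRT8 and CDH1 were called higher, KRT18 was not called and EPCAM was 2.27-fold lower. Of 5 corneal epithelial markers, KRT3, KRT12 and ALDH3A1 were below background on all arrays, while PAX6 was at least 46.4-fold and KRT16 302-fold higher at week 8. The sum of these 5 was 267, 349, 5168, 15925 and 21559. Its week 8 value came almost wholly from KRT16 (14.22 on the log2 scale) and PAX6 (11.20). The 6 endothelial markers summed to 796, 551, 354, 342 and 303. TEK was above background on all arrays and 10.1-fold lower at week 8, KDR was above it at weeks 6 and 8, TIE1 at no week, and PECAM1, CDH5 and VWF only at some week between weeks 0 and 8.

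A list of 83 other guidance genes, among them adhesion molecules, co-ligands and the enzymes that carry the signal to actin, was set beside the ligands and receptors. It had 78 genes with a named probe, and of 66 measured at week 0 or 8, 14 (21.2%) were higher and 7 (10.6%) lower at week 8, against 16.8% and 15.4% of all genes, with a median difference of 0.17. FLRT2, below background at week 0, was up at least 24.4-fold at week 8, and FLRT1 was 9.50-fold higher. FLRT proteins bind UNC5 receptors on other cells. SRGAP3, a GTPase-activating protein that acts downstream of ROBO, was 9.52-fold higher, at 6.03, 8.83, 10.59, 9.66 and 9.28 at weeks 0, 2, 4, 6 and 8. The actin-severing protein gene CFL2 was 6.47-fold higher. The axonal adhesion gene CNTN2 was below background through week 4 and up at least 5.51-fold at week 8.

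On the lower side were L1CAM (60.6-fold), an adhesion molecule of axons, and DRAXIN (at least 4.15-fold), a ligand of DCC. ROCK1 (2.59-fold) and LIMK1 (2.32-fold) encode kinases that carry the signal to actin. Their relatives were not lower: LIMK2 was at least 2.17-fold higher, and ROCK2 (0.45 on the log2 scale) was not called. DPYSL2, which carries the SEMA3A signal, stood at 12.55, 11.84, 13.03, 10.98 and 11.25 and was 2.47-fold lower at week 8. The list thus held calls in both directions, and its share of higher genes lay near that of all genes.

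The calls that held under every processing setting tried were those of EFNA1, EFNB1, EFNB2, EPHA3, PLXNB2 and SLIT2, higher at week 8, and SEMA6A, lower. Not every setting could end these calls. The looser detection limit and the filter on all 5 arrays left the differences of these genes as reported. Averaging probes moved EPHA3 alone among them, to 1.56. SEMA3C, SLIT3 and NTNG1 kept their call under 6 of 7 settings and could not be judged under the other, which admits only genes above background on all 5 arrays. Without background correction EFNA5, NRP1, NTN1, NTN4, PLXNA3, SEMA3F and SEMA5A were not called at week 8, nor were EPHB6, UNC5A and UNC5D. With the authors' processed values the same 10 genes and SEMA4F (0.96) were not called. An offset of 50 ended the calls of NTN1, SEMA3F, EPHB6 and UNC5A. On the mean of their probes NRP1 differed by 0.92 and NTN4 by 0.44. No called difference at week 2 or week 8 changed sign under any of the 7 settings.

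**Figure D4:**
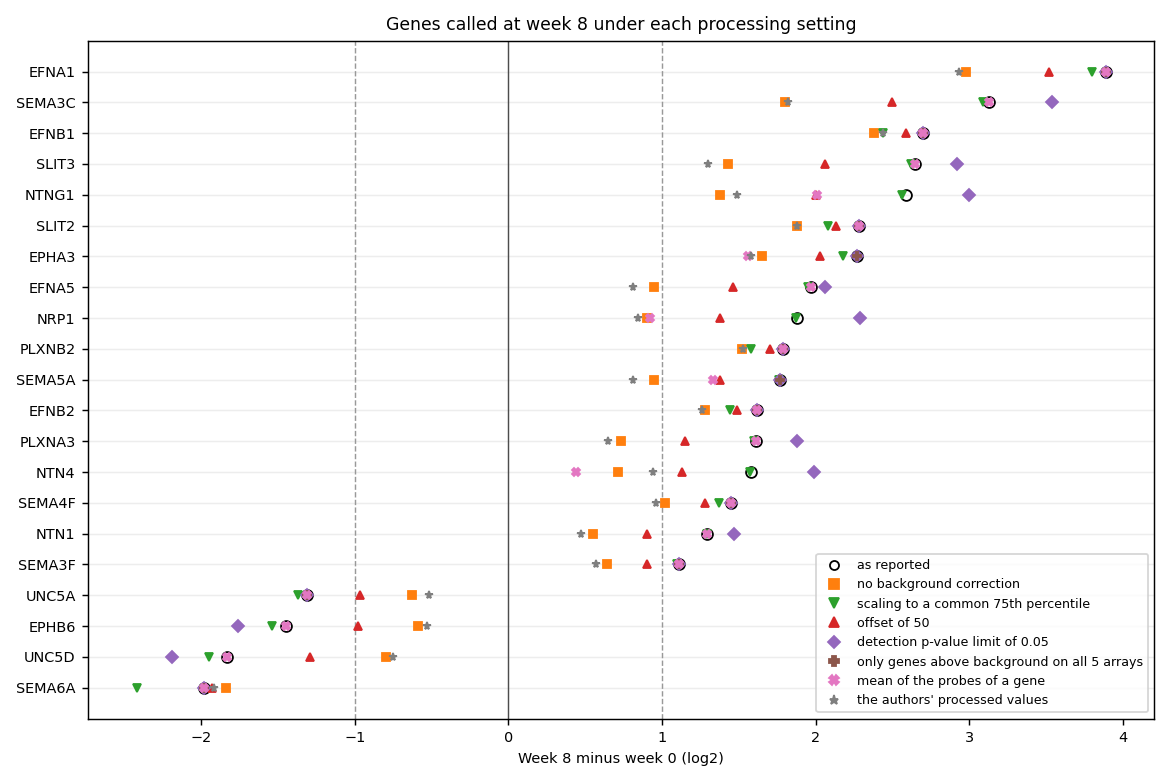
Week 8 minus week 0 (log2) for the 21 guidance genes called at week 8, under the reported setting (open circles) and 7 others (symbols). Dashed lines mark 2-fold. EFNA1 lies furthest right, at 3.89 as reported and SEMA6A furthest left among the lower genes, at -1.98. No symbol lies on the opposite side of 0 from the reported value.

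Other probes existed for some of the 21 genes called at week 8. Of these 21, 11 had 1 probe, and 5 (EFNA1, NTN1, PLXNB2, SEMA4F and SLIT3) had further probes that were below background on all arrays. A further probe was above background at week 0 or 8 for EPHA3, NRP1, NTNG1 and SEMA5A, and 2 of these 4 probes, those of EPHA3 and NTNG1, also passed 2-fold in the same direction. The EPHA3 probe was at the limit, with a bound of 1.0 on the log2 scale. The SEMA5A probe was above background at week 8 alone, at 6.00. The NRP1 probe, below background at week 0, stood at 5.63 at week 8, and its lower bound of -0.04 was not a call. The other probe of NTN4, the remaining gene, was above background at week 6 alone.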

How the data were processed

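Total RNA of 5 samples was turned into biotin-labelled cRNA and read on Illumina bead arrays, per the labels' protocols. One deposited table holds unnormalized linear intensity per probe, per the file headers, with no background subtracted (lowest signal 90.0 to 98.7). Its detection score, a deposited fraction from 0 to 1, was taken to be the complement of the detection p-value. Processed intensity values of the authors were deposited separately. The scanner software and the method behind that table are not given in the sources used here.

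Unnormalized signals were corrected for background, given an offset of 16, quantile normalized and put on the log2 scale with neqc of limma 3.58.1 in R 4.3.3, with later steps in Python 3.11.15. Of 47317 probes, 30110 had 1 gene symbol, 8 several and 17199 had no entry in the platform annotation. Entrez identifiers brought the symbols of 30071 probes up to date. Each gene was taken at its probe of highest mean. Between 16993 and 18358 probes were above background on an array, and the median signal above background was 2.62 to 2.90 times that below it, which with 5 arrays limits the precision. The steps were tested on simulated data.

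The genes, the lists and the settings were chosen with earlier results of these data known, and the other guidance genes named are the 5 largest calls each way at week 8. LIMK2 and ROCK2 were added as relatives of called genes. The ephrin proteins could not be shown, since no protein sequences were used here. Alternatives were the authors' processed values, an offset of 50, averaging all probes of a gene, a detection limit of 0.05, scaling by the 75th percentile, leaving the background uncorrected, and keeping only genes detected on each of the 5 arrays.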

Additional observations from a re-analysis of the deposited data

How the results depend on the processing

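Single arrays, and signals close to background, limit these results. For the genes named at weeks 2 and 8, 308 differences were recomputed, of which 262 kept their status as called or not called and 46 did not. Some of the 262 could not have changed, so that number overstates how far the results were tried. The looser detection limit left the difference of a gene above background on both compared arrays as it was. The filter on all 5 arrays did so for the genes it admitted, and averaging probes did so for genes with 1 probe. No called difference changed sign. At week 2, where neither was called, NTN4 differed by -0.25 on the mean of its probes (0.55 as reported) and SEMA6A by -0.24 under scaling to the 75th percentile (0.07 as reported). No paired analysis was possible because each week has 1 array and no test was run. The cause of the changes below was not tested, apart from the smaller number of genes admitted by the filter on all 5 arrays.

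Scaling to the 75th percentile moved the median difference of all genes at week 8 to -0.21, from -0.05 as reported, and at week 4 and week 6 to -0.19. Higher genes were then 41.9% of all calls at week 8 in place of 52.1%, 39.5% in place of 52.9% at week 6 and 41.5% in place of 54.9% at week 4. Among guidance genes they were 77.3% in place of 81.0% at week 8. SEMA4D was then also called lower at week 8 (-1.07), and ROBO2 was called higher with a detection limit of 0.05 (1.21).

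Without background correction, guidance genes called higher numbered 13, 14 and 10 at weeks 4, 6 and 8, and those called lower 1, 0, 1 and 1 at weeks 2, 4, 6 and 8, all against week 0. From week 2 to week 4, 4 were higher and 2 lower, from week 4 to week 6, 2 were lower, and 5 were transiently high. The median difference was then 0.18 at week 2 and 0.13 at week 8, and 7 other guidance genes were higher and 2 lower. With the authors' processed values, 12, 13 and 9 were higher at weeks 4, 6 and 8, and 1, 0, 1 and 1 lower at weeks 2, 4, 6 and 8. From week 2 to week 4, 5 were higher and 1 lower, from week 4 to week 6, 1 was lower, and 5 were transiently high. The median was 0.19 at week 2 and at week 8, and 7 other guidance genes were higher and 2 lower. With an offset of 50, 2 were lower at each of weeks 2, 4 and 8 and from week 2 to week 4, 6 were transiently high and 4 other guidance genes were lower. With genes above background on all 5 arrays, 5, 11 and 9 were higher at weeks 2, 6 and 8, and 2, 2, 3 and 2 lower at weeks 2, 4, 6 and 8. From week 2 to week 4, 2 were lower, from week 4 to week 6, 0 were higher, 6 were transiently high, 8 other guidance genes were higher, and the week 8 median was 0.12.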
